A study of Mus musculus with 6 samples.

Results

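The immunoglobulin heavy and light chain genes are the genes from which B cells and plasma cells build antibodies. They were taken from the deposited table by their symbols, as every V, D, J or constant region gene of the heavy (Igh), kappa (Igk) and lambda (Igl) loci. The rule found 179 of the 11717 listed genes: 86 Ighv, 78 Igkv and 3 Iglv variable (V) segments, which are 167 V segments together, and 12 constant region genes, of which 7 encode heavy chains, 1 the kappa chain and 4 lambda chains. No D or J segment and no Ighe matched the rule. All 179 were matched by identifier to the GENCODE M21 annotation of GRCm38, the build called mm10 in the submitters' notes, with 93 on chromosome 12, 79 on chromosome 6 and 7 on chromosome 16. Of the V genes annotated there, 85 of 113 at the Ighv locus, 76 of 100 at the Igkv locus and 3 of 3 at the Iglv locus were listed, along with 3 V pseudogenes (Ighv1-2, Igkv2-107 and Igkv1-108).

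RNA was sequenced from natural killer (NK) cells, lymphocytes that kill infected and transformed cells and do not make antibodies, purified from the spleens of C57BL/6 mice. Every animal carried an IL-15 transgene (IL-15Tg), a source of the cytokine on which NK cells depend. The 2 groups of 3 libraries were IL-15Tg WT (WT) and IL-15Tg-Xbp1s cKO (cKO), a conditional knockout directed at Xbp1s, the spliced form of a transcription factor of the unfolded protein response. The promoter that drives the deletion, the promoter of the transgene, the age and sex of the mice and the way the cells were purified are not named by the labels.

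A B cell makes its receptor by joining a V segment to D and J segments at the heavy locus, and V to J at a light locus, so that each B cell clone uses 1 V segment for each chain it expresses. Naive B cells make IgM and IgD from the constant genes Ighm and Ighd by alternative splicing of 1 transcript, and class switching replaces these with Ighg, Ighe or Igha. Plasma cells hold far more immunoglobulin mRNA per cell than B cells, and in them Xbp1s is needed for full antibody secretion. Antibody RNA is a mark of B lineage cells. In bulk RNA, fewer cells of a type and less RNA per cell cannot be told apart.

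Sequences of 4 V segments are printed because results below turn on them. Ighv11-2, Igkv14-126 and Igkv4-91 are segments of recurrent B-1 cell receptors in the mouse, and Ighv8-12 and Igkv4-91 each stood out in 1 library. Each is the last 300 bases of the spliced coding sequence, 5′ to 3′, from the GENCODE M21 transcripts, starting at base 54 or 59 of the coding sequence, and coordinates are those of the whole gene. Capitals mark bases covered by any 50-base stretch, the read length, that also occurs in a transcript of another annotated gene. A read of such a stretch has more than 1 possible source, while other reads over the same base can be unique to the gene.
Ighv11-2 (GRCm38 chr12:114048241-114048812, minus strand): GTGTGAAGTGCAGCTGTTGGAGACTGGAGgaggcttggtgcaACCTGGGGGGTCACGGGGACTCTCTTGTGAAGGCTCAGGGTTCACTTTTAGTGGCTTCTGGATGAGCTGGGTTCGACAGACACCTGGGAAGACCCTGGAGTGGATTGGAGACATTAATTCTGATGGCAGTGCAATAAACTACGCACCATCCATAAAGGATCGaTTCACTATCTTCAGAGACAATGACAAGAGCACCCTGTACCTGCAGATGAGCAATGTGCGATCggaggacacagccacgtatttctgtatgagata
Igkv14-126 (GRCm38 chr6:67896172-67896642, plus strand): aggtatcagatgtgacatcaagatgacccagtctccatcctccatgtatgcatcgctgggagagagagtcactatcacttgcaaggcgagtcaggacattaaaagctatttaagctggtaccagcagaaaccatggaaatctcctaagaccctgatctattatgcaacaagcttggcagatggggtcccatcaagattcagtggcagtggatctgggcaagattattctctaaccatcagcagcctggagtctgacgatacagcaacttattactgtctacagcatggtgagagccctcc
Ighv8-12 (GRCm38 chr12:115647945-115648387, minus strand): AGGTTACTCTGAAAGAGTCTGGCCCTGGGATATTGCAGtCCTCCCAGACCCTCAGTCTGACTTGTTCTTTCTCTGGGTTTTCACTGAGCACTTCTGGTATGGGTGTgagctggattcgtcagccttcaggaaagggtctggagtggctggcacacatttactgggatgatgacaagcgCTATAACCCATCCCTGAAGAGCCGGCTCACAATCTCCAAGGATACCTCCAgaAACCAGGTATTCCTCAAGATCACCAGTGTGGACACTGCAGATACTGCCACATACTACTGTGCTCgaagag
Igkv4-91 (GRCm38 chr6:68768555-68769103, minus strand): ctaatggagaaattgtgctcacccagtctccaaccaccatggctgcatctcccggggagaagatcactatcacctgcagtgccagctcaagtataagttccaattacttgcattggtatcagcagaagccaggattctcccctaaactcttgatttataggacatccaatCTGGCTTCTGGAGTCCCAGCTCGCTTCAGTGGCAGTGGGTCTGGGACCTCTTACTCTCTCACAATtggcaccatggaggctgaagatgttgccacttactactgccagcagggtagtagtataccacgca

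In Ighv11-2, 306 of the 353 bases of the whole coding sequence were of this kind, and its nearest relative, Ighv11-1, matched it at 349 of 353 aligned bases (98.9%). Ighv11-1 is not a row of the table. Igkv14-126 had no such base among 353, and its nearest relative, Igkv14-111, was 91.5% identical. Ighv8-12 had 277 of 358, with Ighv8-13 96.3% identical, and Igkv4-91 had 65 of 358, with Igkv4-70 87.4% identical. Counted by 50-base windows of the transcript, fewer reads are shared than the capitals show. Windows found in no other gene's transcript made up 61.4% in Ighv11-2, 100% in Igkv14-126, 81.5% in Ighv8-12 and 94.8% in Igkv4-91. Over the 167 V segments, a median of 77.2% of the 50-base windows occurred in no other gene's transcript, from 7.49% to 100%, and 22 segments were under 50%. The 12 constant region genes had a median of 99.8% and a lowest value of 77.7%, in Iglc3. Counts of single V segments are uncertain to that extent, because the way reads with several matching places were counted is not named by the labels.

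The reads over all listed genes numbered 26297292 to 29366756 per library, so that 1 read was worth 0.0341 to 0.0380 CPM (counts per 1000000 listed reads). Where 3 values are given for a group, they follow the order of libraries 1, 2 and 3. Xbp1 was at 42.9, 61.4 and 63.5 CPM in WT, against 35.1, 33.4 and 39.7 CPM in cKO, so all cKO libraries were below all WT libraries, in the direction of the labels. The log2 fold change of Xbp1 was -0.61, with an exact permutation p of 0.1, the smallest that 3 against 3 libraries can give. Its unadjusted limma p was 0.00686, but Xbp1 was not called at an adjusted p under 0.05. DESeq2 did not call it either (adjusted p = 0.224). NK cell markers were abundant, at a sum of 12891 to 14604 CPM over 14 genes in WT and 12246 to 13128 CPM in cKO, with 1 positive and 13 negative log2 fold changes. The summed CPM of 26 B cell markers was 1000.3, 1224 and 602 in WT, against 1681, 821 and 1596 in cKO. None of these markers was at 0 in any library. WT library 3 stood apart as the lowest, and cKO library 2 was below WT libraries 1 and 2. A chi-square comparison of reads found no duplicates. The smallest values per degree of freedom, 4.73 for WT 1 with cKO 2, 7.12 for WT 2 with cKO 1 and 14.4 for WT 3 with cKO 3, joined libraries of different groups, while pairs within a group lay between 16.8 and 42.0.

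Immunoglobulin genes took a small share of the reads in every library. Their summed level was 1175, 993 and 867 CPM in WT, against 1499, 879 and 1649.5 CPM in cKO, or between 0.0867% and 0.165% of the listed reads. The groups overlapped, since cKO library 2 was below WT libraries 1 and 2. WT averaged 1012 ± 155 CPM and cKO 1342 ± 409 CPM (SD, n = 3 each), which gives a log2 ratio of 0.41 beside a spread of 0.38 (SD of the log2 sums within groups). The summed B cell markers had their 2 highest libraries, cKO 1 and cKO 3, in common with the immunoglobulin sum, and their part in the result was not tested. The log2 ratio was 0.31 without WT library 3, 0.23 without cKO library 3 and 0.64 without cKO library 2.

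No immunoglobulin gene differed between the genotypes past the threshold in the limma fit. Of the 179 members, 80 passed the filter of 1 CPM or more in 3 or more libraries (69 V segments and 11 constant region genes). Limma on log2(CPM + 0.5) called 0 of the 80 at an adjusted p under 0.05, beside 0 of 11343 genes tested (0%). edgeR's quasi-likelihood test also called 0 genes, and DESeq2 called 6 genes (0.0529%), of which 1, Ighv11-2, is an immunoglobulin gene. At an unadjusted p under 0.05, limma counted 11 members, all V segments and all higher in cKO, where 96 of the 11343 genes (0.846%) were higher and 37 (0.326%) lower at that p. The median log2 fold change of the members tested was 0.29, with 60 positive and 20 negative, beside a median of 0.009 over all genes tested, of which 55.5% were positive. The SE of a member was also wide, with a median of 0.36 on the log2 scale beside 0.096 over all genes tested. The other 99 members were under the filter, and 3 of the 80 passed it through the cKO libraries alone. Over all 179 without a filter, 134 fold changes were positive and 45 negative.

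**Figure D1:**
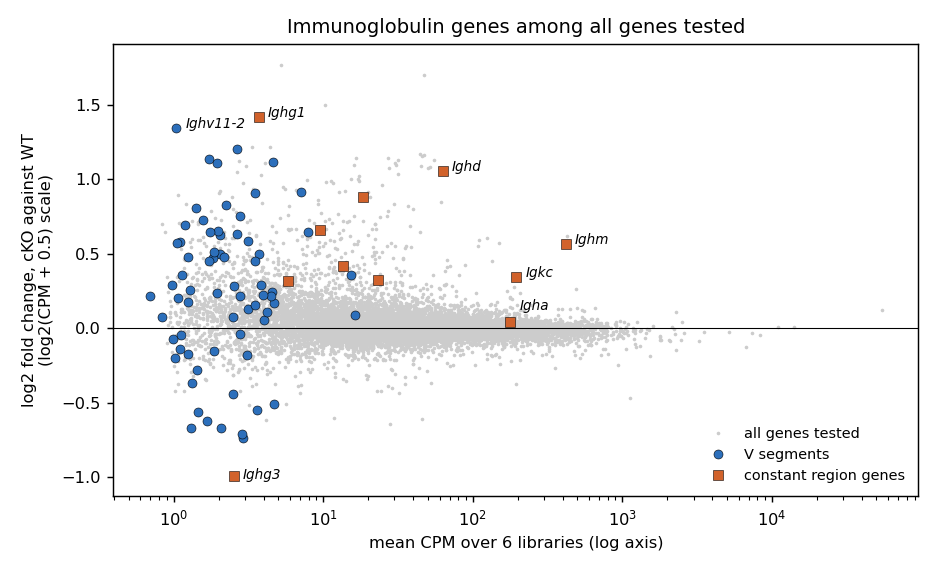
Log2 fold change of cKO against WT (vertical axis, log2(CPM + 0.5) scale) against mean CPM over the 6 libraries (horizontal log axis) for all 11343 genes tested, with V segments as blue circles and constant region genes as orange squares. The immunoglobulin genes spread from -0.99 (Ighg3) to 1.42 (Ighg1) around a median of 0.29, and none passed the threshold with limma.

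The naive isotypes gave most heavy chain reads in 5 of the 6 libraries. Ighm (ENSMUSG00000076617.9, GRCm38 chromosome 12, 113418558 to 113422730, minus strand), the constant gene of IgM, was at 384, 435 and 200.1 CPM in WT, against 618, 319 and 552 CPM in cKO. The highest were cKO 1 and cKO 3, the lowest was WT 3, and cKO 2 lay among the WT values. WT averaged 339.7 ± 124 CPM and cKO 496 ± 157 CPM (SD, n = 3 each), while the log2 fold change of 0.57 had a 95% interval from -0.28 to 1.42 (limma adjusted p = 1.00, exact permutation p = 0.3). Ighd (chromosome 12, 113406604 to 113416324, minus strand), the constant gene of IgD, was at 50.9, 70.9 and 11.2 CPM in WT, against 102, 32.8 and 112 CPM in cKO. Its log2 fold change was 1.05, with an interval from -0.77 to 2.87 and an exact permutation p of 0.4. WT library 3 was again the lowest of the 6, and without it the log2 fold change was 0.26 for Ighd and 0.22 for Ighm. Without cKO library 2 it was 1.61 for Ighd and 0.86 for Ighm.

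IgA was the main switched isotype. Igha (chromosome 12, 113254830 to 113260236, minus strand), the constant gene of the antibody of mucosal secretions, was at 186, 88.2 and 263 CPM in WT, against 133, 132 and 267 CPM in cKO. The highest values, in WT 3 and cKO 3, came from different groups, and WT averaged 179 ± 87.4 CPM and cKO 178 ± 77.6 CPM (SD, n = 3 each). Its log2 fold change was 0.04 by limma, with an interval from -1.02 to 1.11 (exact permutation p = 0.9), and -0.02 by edgeR and by DESeq2.

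The IgG genes were at much lower levels. Ighg2b was at 10.6, 2.48 and 10.7 CPM in WT, against 9.19, 9.62 and 14.4 CPM in cKO. Ighg2c was between 3.25 and 7.08 CPM in WT, against 5.46 to 8.01 CPM in cKO. Ighg1, the main IgG of protein antigen responses in mice, was at 4.51, 1.08 and 0.608 CPM in WT, against 6.88, 6.36 and 2.82 CPM in cKO, and WT library 1 lay above cKO library 3. Its log2 fold change of 1.42 had an interval from -0.01 to 2.84 and an exact permutation p of 0.2. Ighg3, an IgG of responses to polysaccharides, was at 10.3 CPM in WT library 1 and between 0.456 and 1.64 CPM in the other 5 libraries. Its log2 fold change was -0.99 with all libraries, -0.02 without WT library 1 and -1.77 without WT library 3.

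Among the light chain constant genes, Igkc (chromosome 6, 70726435 to 70726966, plus strand), which encodes the kappa constant region, was at 206, 146 and 156 CPM in WT, against 242, 143 and 277 CPM in cKO. WT averaged 169 ± 31.9 CPM and cKO 221 ± 69.4 CPM (SD, n = 3 each), and cKO library 2 was the lowest of all 6. The log2 fold change was 0.34, with an interval from -0.27 to 0.96 and an exact permutation p of 0.4. It was 0.15 without cKO library 3 and 0.63 without cKO library 2. The lambda constant genes lie on chromosome 16 on the minus strand. Iglc1 was between 15.5 and 24.7 CPM in WT, against 17.2 to 31.8 CPM in cKO, with a log2 fold change of 0.32 that was 0.14 without WT library 3, 0.16 without cKO library 1 and 0.59 without cKO library 2. Iglc2 was at 14.5, 18.6 and 6.54 CPM in WT, against 31.0, 14.6 and 25.9 CPM in cKO, with a log2 fold change of 0.88 and an interval from -0.13 to 1.89, and 0.46 without WT library 3. Iglc3 was between 5.21 and 15.5 CPM in WT, against 7.66 to 19.4 CPM in cKO, with a log2 fold change of 0.41, and -0.06 without WT library 3. Iglc4 had 13 reads in total and was not tested. It was at 0 reads in WT 3 and cKO 2, which allows up to 0.114 and 0.105 CPM. The groups overlapped in each of the 12 constant region genes, and 10 of the 11 tested had a positive log2 fold change. Igkc, Iglc1, Iglc2 and Iglc3 overlap other annotated features, and since strand use in counting is not stated their reads cannot be told apart from those of the neighbours.

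**Figure D2:**
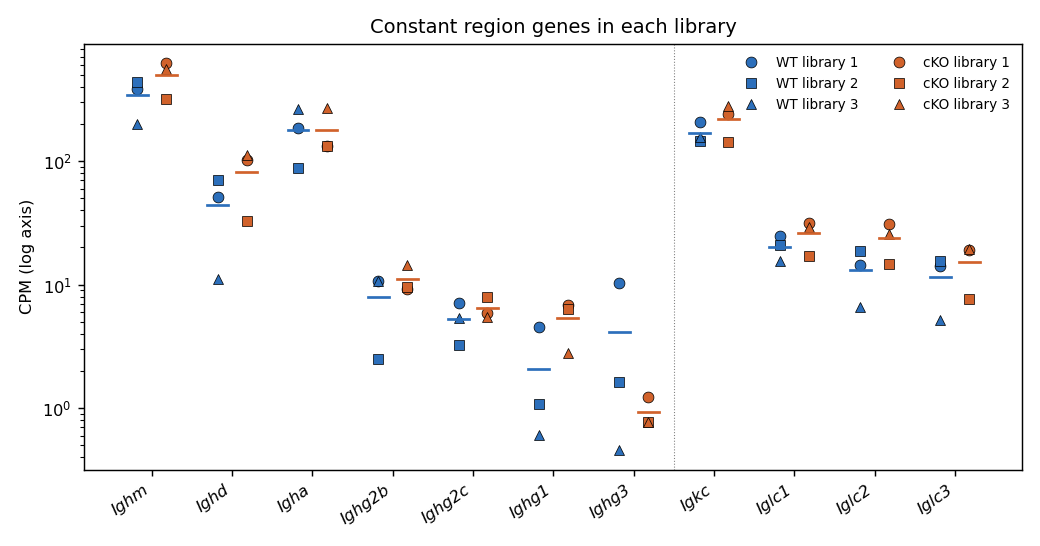
CPM (log axis) of 11 constant region genes in each library, with WT libraries in blue, cKO libraries in orange, symbols for the library number and short bars for the group means. WT and cKO libraries overlap for every gene, from Ighm at 200.1 to 618 CPM down to Ighg3, where WT library 1 stands alone at 10.3 CPM.

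Per kilobase of exon, which allows levels of different genes to be compared, Igkc had the highest mean over the 6 libraries, at 366 CPM per kb. Ighm followed at 222, Igha at 66.8, Iglc1 at 51.1, Ighd at 33.3, Iglc2 at 30.2 and Iglc3 at 29.9 CPM per kb. The IgG genes were at 4.41 (Ighg2c), 3.55 (Ighg2b), 1.43 (Ighg1) and 1.00 (Ighg3) CPM per kb. By this measure the library ranges of Igkc and Ighm overlapped, although within every library Igkc was above Ighm. Ranges also overlapped for Igha with Iglc1, for Iglc1, Ighd, Iglc2 and Iglc3, and for the IgG genes. Igha was above Ighg2c in every library.

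The balance of naive and switched isotypes varied from library to library more than between genotypes. Switched isotypes (Igha and Ighg) made up 33.5% of the heavy chain constant reads in WT library 1 (95% Wilson interval 32.8 to 34.2%, 6054 of 18088 reads), 16.0% in WT 2 (15.5 to 16.6%) and 57.0% in WT 3 (56.1 to 57.8%). They made up 17.8% in cKO 1 (17.4 to 18.3%), 30.9% in cKO 2 (30.2 to 31.7%) and 30.5% in cKO 3 (29.9 to 31.0%). WT held both the lowest and the highest share. WT averaged 35.5 ± 20.5% and cKO 26.4 ± 7.42% (SD, n = 3 each), a difference of -9.09 points. That sign rested on WT library 3, without which the difference was 1.65 points. Ighm gave 58.7, 72.2 and 40.7% of these reads in WT, against 70.5, 62.6 and 57.8% in cKO. Igha gave 28.5, 14.6 and 53.5% in WT, against 15.2, 26.0 and 28.0% in cKO, so WT 3 was the one library with more reads on Igha than on Ighm. These shares count reads without regard to length, and Igha has 2668 bases of exon against 1886 in Ighm. Per kilobase of exon, switched genes summed to 106.9 of 218.9 CPM per kb in WT 3, so they were not the larger part there. The IgG genes together stayed between 1.40% and 4.97%.

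**Figure D3:**
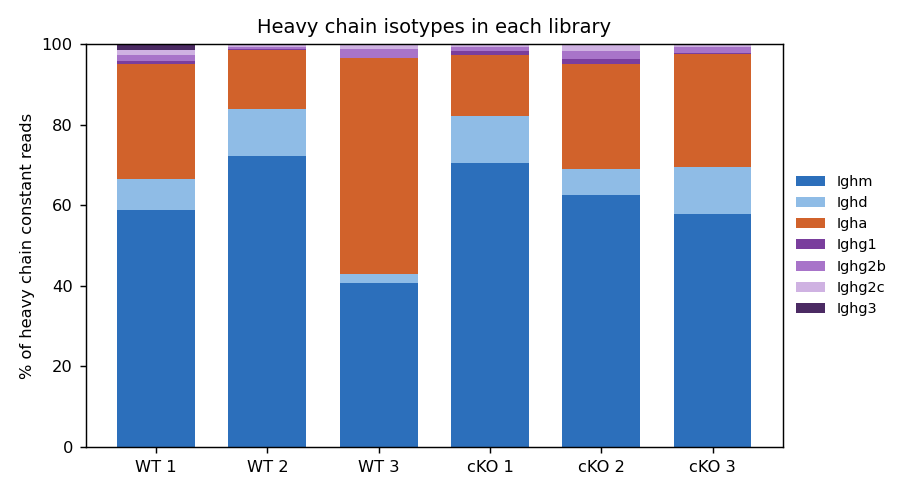
Share of heavy chain constant reads (vertical axis, %) on each of 7 heavy chain constant genes, 1 stacked bar per library. Igha (orange) takes 53.5% in WT 3 and between 14.6% and 28.5% in the other 5 libraries. Shares are of reads and are not corrected for exon length.

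The naive isotypes and IgA followed different genes across the 6 libraries. The order of libraries from high to low by Ighm was cKO 1, cKO 3, WT 2, WT 1, cKO 2 and WT 3, and 13 of the 26 B cell markers had exactly this order, among them Ms4a1, a surface protein of B cells, and Cd79a and Cd79b, the signalling chains of the B cell receptor. The order by Ighd differed only in having cKO 3 before cKO 1, and 7 of the 26 markers had it. Cd79a was at 37.9, 51.4 and 7.61 CPM in WT, against 86.8, 27.5 and 74.0 CPM in cKO. The ratio of Ighd to Cd79a CPM was 1.34, 1.38 and 1.47 in WT, against 1.17, 1.19 and 1.51 in cKO, a range of 1.29-fold over libraries in which Ighd itself varied from 11.2 to 112 CPM. The ratio of Ighm to Cd79a was 10.1, 8.47 and 26.3 in WT, against 7.12, 11.6 and 7.45 in cKO, and it was highest in WT 3, the library with the least Cd79a.

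Igha ordered the libraries as cKO 3, WT 3, WT 1, cKO 1, cKO 2 and WT 2. Jchain, which encodes the chain that joins IgA dimers and IgM pentamers and is made by plasma cells, had the same order, at 46.8, 28.2 and 49.5 CPM in WT, against 42.3, 33.3 and 52.7 CPM in cKO. The summed CPM of 13 listed plasma cell genes did not have this order. It was 997, 1062 and 1051 in WT, against 1045, 941 and 1044 in cKO, with WT 2 the highest. Of these 13 genes, 4 were lowest in WT 2 and 4 were highest in cKO 3. The ratio of Igha to Jchain lay between 3.13 and 5.30, while that of Igha to Cd79a ran from 1.53 to 34.5. Igkc lay between these patterns, with a ratio to Cd79a of 5.42, 2.83 and 20.6 in WT, against 2.80, 5.20 and 3.74 in cKO. These ratios and orders describe 6 libraries and were chosen after the values were seen. Whether they follow B cells and plasma cells in the samples was not tested.

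**Figure D4:**
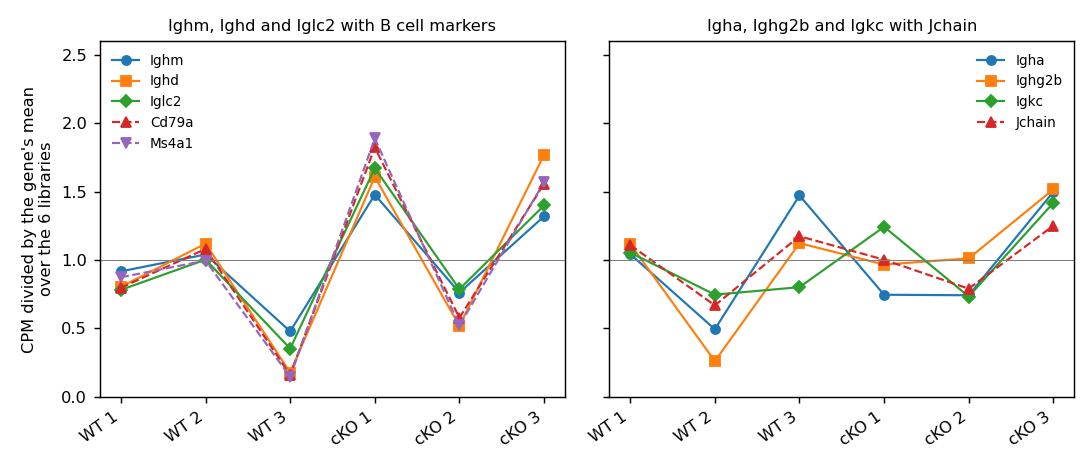
CPM of each gene divided by its own mean over the 6 libraries (vertical axis), with immunoglobulin genes as solid lines and other genes as dashed lines, and with lines that only join the libraries of 1 gene. Ighm, Ighd and Iglc2 (left) are lowest in WT 3 together with Cd79a and Ms4a1, whereas Igha and Jchain (right) are high in WT 3, at 263 and 49.5 CPM, and lowest in WT 2.

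Light chains were mostly kappa. Lambda constant genes made up 20.6, 27.4 and 14.8% of the light chain constant reads in WT, against 25.2, 21.6 and 21.3% in cKO. WT averaged 20.96 ± 6.30% and cKO 22.7 ± 2.20% (SD, n = 3 each), 1.74 points apart, and -1.33 points without WT library 3. All 3 lambda V segments were listed. Iglv1, the most used of them, was between 12.0 and 19.7 CPM in WT, against 13.4 to 18.9 CPM in cKO. Like Iglc1 and Iglc3, Iglv1 overlaps another annotated feature, so its reads carry the limit given for those genes. Iglv2 was at 3.47, 3.25 and 3.498 CPM in WT, against 3.95, 4.11 and 4.83 CPM in cKO. Its groups did not overlap, but the log2 fold change of 0.29 had an interval from -0.02 to 0.60 and an exact permutation p of 0.1. Iglv3 was at 2.13, 3.39 and 0.608 CPM in WT, against 4.87, 1.62 and 3.23 CPM in cKO.

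V segments and constant regions kept nearly the same proportion in every library. V segments took 22.4, 19.1 and 22.2% of immunoglobulin reads in WT, against 19.9, 21.3 and 20.9% in cKO. The means, 21.2 ± 1.85% in WT and 20.7 ± 0.706% in cKO (SD, n = 3 each), differed by -0.50 points, less than the spread between libraries (SD 1.40 points). The ratio of summed Igkv to Igkc reads was the steadiest of all, between 0.590 and 0.647. Summed Ighv to heavy constant reads lay between 0.128 and 0.171, and summed Iglv to Iglc between 0.338 and 0.591. Per kilobase of exon the classes were closer: V segments summed to 501 to 924 CPM per kb and constant region genes to 569 to 1133 CPM per kb. At the kappa locus alone, Igkv segments summed to 348, 241 and 245 CPM per kb in WT, against 407, 238 and 478 in cKO. Igkc was at 387, 274 and 294 CPM per kb in WT, against 456, 269 and 520 in cKO.

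The V segments were many and each was low. Between 74 and 86 of the 86 Ighv and between 68 and 78 of the 78 Igkv segments had at least 1 read in a library, with WT 3 the lowest in both. The effective number of segments, the inverse of the summed squared shares, was 26.1, 39.4 and 32.5 for Ighv in WT, against 31.2, 32.1 and 45.1 in cKO. For Igkv it was 19.6, 30.8 and 20.5 in WT, against 20.4, 22.2 and 23.4 in cKO. The most abundant Igkv segment, Igkv1-117, was at 17.98, 8.12 and 12.7 CPM in WT, against 20.4, 7.66 and 25.3 CPM in cKO. It led the Igkv reads in every library except cKO 2, where Igkv1-110 did. Igkv6-23 was at 3.14, 2.48 and 1.75 CPM in WT, against 2.66, 5.73 and 12.1 CPM in cKO, and Igkv10-96 was between 2.70 and 7.21 CPM. Ighv1-26 was between 2.599 and 5.39 CPM in all libraries, Ighv3-6 between 1.40 and 10.4 CPM and Ighv1-18 between 1.06 and 8.12 CPM, and their groups overlapped.

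**Figure D5:**
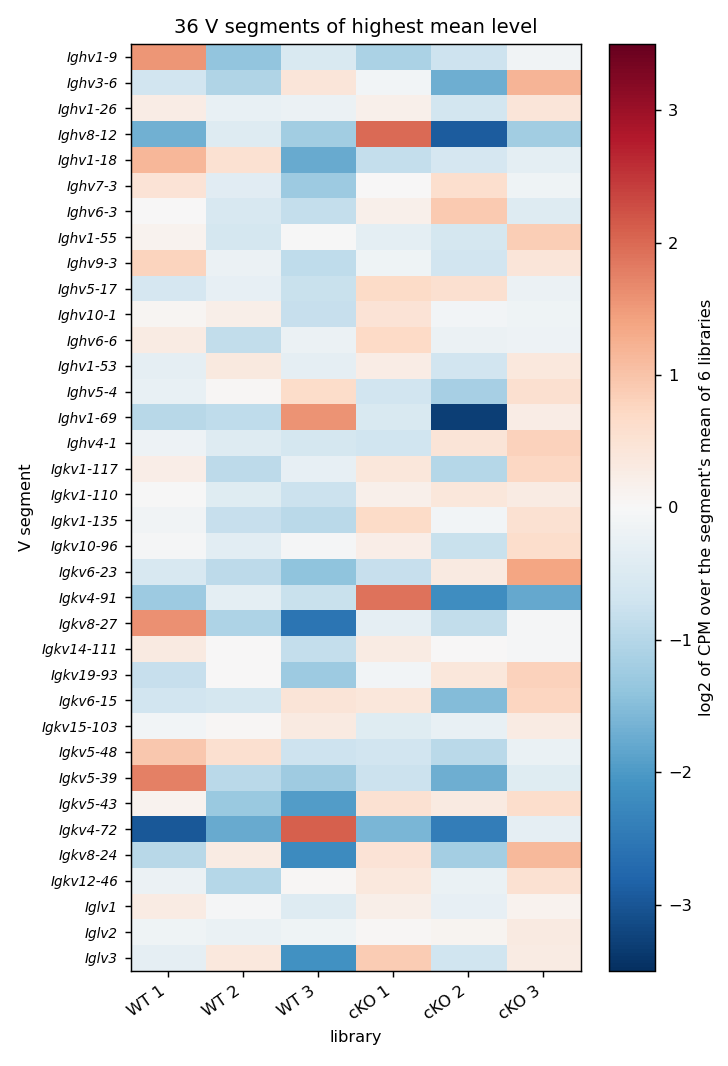
The 36 V segments of highest mean CPM (rows, by locus) in the 6 libraries (columns), coloured by log2 of the CPM over the segment's own mean. Single dark red cells mark segments high in 1 library, such as Ighv8-12 and Igkv4-91 in cKO 1, Ighv1-9 and Igkv5-39 in WT 1 and Igkv4-72 in WT 3.

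Some V segments were high in a single library. With a rule set after the values were seen, at least 1 CPM and at least 3 times every other library, 9 of the 120 V segments that reached 1 CPM in some library met it, beside 2 of 11386 listed genes (0.0176%) that reached 1 CPM and are not immunoglobulin genes. In cKO library 1, Igkv4-91 was at 16.5 CPM (486 reads) with the next library at 3.498 CPM, and Ighv8-12 was at 14.7 CPM (433 reads) with the next at 2.73 CPM. These 2 segments made up 10.9% of the Igkv reads and 12.4% of the Ighv reads of that library. WT library 1 had 3 such segments: Ighv1-9 at 13.8 CPM, Igkv8-27 at 12.8 CPM and Igkv5-39 at 9.82 CPM, which were 12.8% of its Ighv reads and 9.87% and 7.58% of its Igkv reads. WT library 3 had Igkv4-72 at 9.62 CPM, 10.4% of its Igkv reads. The segments of cKO library 3, Ighv1-63, Igkv4-53 and Igkv3-1, were lower, between 1.11 and 3.94 CPM, and WT 2 and cKO 2 had none. One constant gene met the same rule, Ighg3 in WT library 1. Without cKO library 1 the log2 fold change between genotypes turned from 0.50 to -0.63 for Ighv8-12 and from 0.21 to -0.91 for Igkv4-91.

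Ighv11-2, whose sequence is given above, had the smallest p of the V segments tested. It was at 0.289, 0.455 and 0.342 CPM in WT (8, 13 and 9 reads), against 2.32, 1.69 and 1.19 CPM in cKO (68, 48 and 32 reads). Every cKO library was above every WT library. The share of Ighv reads on Ighv11-2, which rests on these same reads, was 0.268, 0.588 and 0.407% in WT, against 1.94, 2.14 and 0.854% in cKO. The log2 fold change was 1.34, with an interval from 0.79 to 1.90, in limma, where the unadjusted p of 0.000817 gave an adjusted p of 1.00 and the exact permutation p was 0.1. DESeq2 gave a log2 fold change of 2.24 and an adjusted p of 0.0442. The segment is 1 of 3 members that passed the filter through the cKO libraries alone, and reads in its capitals may come from Ighv11-1.

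Igkv14-126, a kappa segment that pairs with Ighv11-2 in B-1 cell receptors of the mouse, was at 1.34, 1.504 and 1.29 CPM in WT, against 2.72, 3.44 and 1.52 CPM in cKO. The groups did not overlap, with a log2 fold change of 0.65 (interval 0.03 to 1.28, exact permutation p = 0.1), but its share of Igkv reads did: 1.03, 1.68 and 1.40% in WT, against 1.79, 3.85 and 0.852% in cKO. Of the other segments on the list of recurrent B-1 receptors, Ighv7-1 was at 0.650, 1.82 and 1.06 CPM in WT, against 0.613, 4.95 and 1.26 CPM in cKO. Ighv12-3, at 0.758, 0.630 and 1.29 CPM in WT, against 0.749, 0.351 and 0.892 CPM in cKO, was not tested. Its groups overlapped, with a lower mean in cKO, and its share of Ighv reads was 0.704, 0.814 and 1.54% in WT, against 0.629, 0.446 and 0.640% in cKO. Igkv7-33 is not a row of the table, and Igkv4-91 is described above. Of 8 listed markers of B-1 cells 4 had a positive and 4 a negative log2 fold change, and limma called 0 of them (0 at an unadjusted p under 0.05). All cKO libraries were below all WT libraries in 1 of them, beside 1.77% of all genes tested. Their summed CPM was 2083 to 2307 in WT and 2032 to 2209 in cKO, above that of the 26 B cell markers in every library. How far these genes reflect B-1 cells was not tested.

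All cKO libraries were above all WT libraries in 11 of the 80 members tested and below in 0, beside 289 (2.55%) and 201 (1.77%) of the 11343 genes. Of the 11, 3 passed the filter through the cKO libraries alone, which fixes this order in advance. The same holds for 5 of the 289. Among all 179 members the counts were 19 and 1, beside 310 (2.65%) and 205 (1.75%) of the 11717 listed genes. The one below was Igkv9-123, at 0.114 to 0.722 CPM in WT and 0.0341 to 0.0702 CPM in cKO. It was under the filter and not tested, and its cKO values were below the level of 3 reads, 0.102 to 0.111 CPM in those libraries. Those above included the following segments of smallest p. Igkv1-110 was at 7.84, 5.91 and 4.72 CPM in WT, against 8.96, 10.5 and 9.77 CPM in cKO, with a log2 fold change of 0.64. Igkv1-135 was at 6.57, 4.09 and 3.73 CPM in WT, against 11.4, 6.64 and 10.3 CPM in cKO, with a log2 fold change of 0.91. Igkv5-43 was at 2.89, 1.08 and 0.684 CPM in WT, against 3.88, 3.34 and 4.09 CPM in cKO, and Ighv5-17 at 1.84, 2.27 and 1.64 CPM in WT, against 4.43, 4.14 and 2.42 CPM in cKO. Each of these 4 had an adjusted p of 1.00 in limma. Their exact permutation p of 0.1, the smallest possible, follows from groups that do not overlap and adds nothing to that. In the other direction the segments of smallest p, Ighv8-8, Igkv5-48, Ighv2-2, Ighv5-6 and Igkv4-55, had log2 fold changes between -0.74 and -0.37, and their groups overlapped.

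Which library was highest or lowest differed among the members. WT library 3 was the lowest of the 6 in 79 of the 179 members, beside 2562 of all listed genes (21.9%), and in 23 of the 26 B cell markers. cKO library 2 was the lowest in 46 members, beside 17.8% of all listed genes, and cKO library 3 in none, beside 17.7%. cKO library 3 was the highest in 76 members, beside 22% of all listed genes, cKO library 1 in 36, beside 11.2%, and WT library 1 in 28, beside 19.9%. Of the B cell markers, 16 were highest in cKO 1 and 10 in cKO 3. Log2 fold changes of the 26 B cell markers were positive in 26 with a median of 0.99, limma called 0 of them, and 0 were at an unadjusted p under 0.05. The part of B cell content in the fold changes of the members was not tested.

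Other genes of the antibody pathway were read from lists. None of the members of any list was called by limma. For assembling and switching the genes, 18 of 21 were listed, the recombinase genes Rag1 and Rag2 not among them, and 16 of the 18 had a positive and 2 a negative log2 fold change, with a median of 0.03. Dntt, which adds bases at V(D)J joints, was between 0.630 and 1.69 CPM. For signalling below the receptor, all 23 were listed, with 19 positive and 4 negative and a median of 0.16. Syk, a kinase that NK cells use as well, averaged 528 ± 50.2 CPM in WT, against 556 ± 68.3 CPM in cKO (SD, n = 3 each), whereas Blnk, an adaptor of B cells, was at 11.1, 16.1 and 3.92 CPM in WT, against 28.4, 9.45 and 28.3 CPM in cKO. Of the surrogate light chain genes, 1 of 4 was listed, Vpreb3, at 0.342 to 4.22 CPM.

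Of 16 plasma cell genes 13 were listed, without Sdc1, Tnfrsf17 and Fkbp11, and their summed CPM was 997 to 1062 in WT and 941 to 1045 in cKO. Of the 12 tested, 5 log2 fold changes were positive and 7 negative. Prdm1, a regulator of plasma cells that NK cells also express, averaged 135 ± 16.5 CPM in WT, against 130.4 ± 12.6 CPM in cKO (SD, n = 3 each). For assembly and secretion of the protein, 10 of 11 genes were listed, of which 2 of those tested had a positive and 7 a negative log2 fold change, with a median of -0.05. Hspa5, the chaperone that binds free heavy chains in the endoplasmic reticulum, averaged 339 ± 45.3 CPM in WT, against 322 ± 28.9 CPM in cKO. Of the Fc receptors, which bind antibody on other cells, 11 of 13 were listed, with 7 positive and 3 negative log2 fold changes. Fcmr, the IgM receptor of B cells, was at 22.0, 30.0 and 4.45 CPM in WT, against 45.8, 16.9 and 44.7 CPM in cKO, while Fcgr2b, the inhibitory IgG receptor, averaged 66.3 ± 4.15 CPM in WT, against 74.7 ± 12.8 CPM in cKO.

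Markers of other splenic cells were present as well. The summed CPM of 15 T cell genes was 377 to 492 in WT and 337 to 449 in cKO. That of 7 listed macrophage genes of 14 was 196 to 267 in WT and 237 to 458 in cKO. That of 11 listed erythroid genes of 12 was 793, 292 and 315 in WT, against 328, 649 and 304 in cKO, highest in WT 1 and cKO 2. Of the tested macrophage genes, 7 had a positive log2 fold change and 0 a negative one. Limma called 0 of them, with 2 at an unadjusted p under 0.05, beside 1.17% of all genes tested. Of 10 neutrophil genes tested, 7 were positive and 3 negative, with 2 at that limma p. Of 9 dendritic cell genes tested, 7 were positive and 2 negative, with 1 at that limma p. The part of these cell types in the values of the immunoglobulin genes was not tested.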

How the data were processed

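Purified splenic NK cells gave 3 WT and 3 cKO libraries, per the labels, from RNeasy RNA by the KAPA Hyper Prep kit, read on a HiSeq2500 in single reads of 50 bases. The submitters' processing notes list mm10 and the tools HISAT2, HTSeq and DESeq2. Tool versions, counting settings, use of strand and the rule for listing genes were not given in the sources used here. The deposited values are CPM, although the authors' table is named RPKM: every column summed to 1000000, and 100% of values were whole multiples of 1 read (tolerance 0.01 reads). Totals are thus reads over listed genes.

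Limma 3.58.1 (R 4.3.3) was run on log2(CPM + 0.5) with an intensity trend, genotype as single term and a minimum of 1 CPM in 3 or more libraries. Benjamini-Hochberg adjustment covered every gene tested, at a threshold of 0.05. Fold changes on this scale understate those of low genes. Alternatives were edgeR 4.0.16 and DESeq2 1.42.0 on the recovered reads, other pseudocounts, filters and scaling, a replicate block, and leaving out each library. Permutation tests were exact and two-sided. Sums, shares and ratios over members had no test. The fit was tested on simulated data.

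The labels do not say that libraries come from separate mice, so the p-values reflect the spread between these samples alone, which may be technical. Intervals of shares and limits from 3 counts cover counting error only. Members and lists were chosen with earlier results of these data known. Named genes are all constant region genes, the 5 V segments of highest mean in Ighv and in Igkv, every Iglv, the 5 tested V segments of smallest p in each direction, the B-1 receptor list, the first members of other lists, and Xbp1. Igkv9-123, the V segments high in 1 library, and any list member beyond the first 4, such as Blnk, were named after their values were seen.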

Additional observations from a re-analysis of the deposited data

How the results depend on the processing

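The median log2 fold change of the members tested stayed positive under each alternative run, between 0.208 and 0.482 when 1 library was left out, and the summed immunoglobulin level kept its sign, with a log2 ratio between 0.233 and 0.638. No library left out gave a called gene: the count was 0 in each case, for all genes and for the members. DESeq2 was the exception among the tools, with 6 genes called and 1 immunoglobulin gene, Ighv11-2. At an unadjusted p under 0.05 the members counted from 8 (WT library 2 left out) to 20 (cKO library 2 left out), and all genes from 59 (cKO library 1 left out) to 395 (cKO library 2 left out), beside 11 and 133. Xbp1 ranged from -0.79 to -0.51 on the log2 scale. The share of V segments differed by -1.57 to 0.07 points, that of switched isotypes by -18.8 to 1.65 points and that of lambda by -1.33 to 4.96 points. The differences in isotypes and in lambda changed sign without WT library 3, and that in V segments without WT library 1.

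Of 39 named genes fitted, 26 kept their sign in each alternative that could fit them and 13 did not, 11 of them only when a library was left out. With a library left out the log2 fold change ranged from -0.40 to 0.39 for Igha, -0.19 to 0.23 for Jchain, -0.061 to 0.84 for Iglc3, -1.07 to 0.25 for Ighv1-9, -0.38 to 0.88 for Ighv3-6, -0.14 to 0.32 for Ighv1-26, -0.63 to 1.34 for Ighv8-12, -0.10 to 0.53 for Igkv10-96 and -0.092 to 0.26 for Iglv1. It ranged from -0.91 to 0.85 for Igkv4-91, -0.20 to 0.95 for Ighv7-1, -0.64 to 1.09 for Igkv8-27 and -1.18 to 0.11 for Igkv5-39. Igha was at -0.023 and Igkv8-27 at -0.67 with edgeR, and at -0.023 and -0.66 with DESeq2. The cause was not tested. Ighv11-2 was between 1.16 and 1.53 with a library left out, at 0.98 with a pseudocount of 1, 1.96 with 0.1, 2.23 with edgeR and 2.24 with DESeq2. The filter on a mean of at least 5 CPM left 13 members, so most named V segments have no value there.

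Replicate numbers gave no consistent sign of pairs. Deviations of same-numbered libraries correlated at -0.17, -0.51 and 0.48, while WT 2 with cKO 1 reached 0.65 and WT 1 with cKO 2 reached 0.59. The replicate block followed these numbers, and with it 0 genes and 0 members were called and the median over members was 0.29. WT 1 with cKO 2, WT 2 with cKO 1 and WT 3 with cKO 3 were also the closest by the chi-square comparison. The labels name no such pairs, the main fit treats the libraries as unpaired, and a fit with these pairs was not run. Few reads limit single V segments, and 28 members had 0 reads in at least 1 library.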
